A study of Mus musculus with 9 samples.

Results

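The transcripts described are those of oxidative phosphorylation, the chain of protein complexes in the inner mitochondrial membrane that makes ATP, in the substantia nigra of sham-operated wild type C57BL/6 mice. The members are the rows of the gene table whose symbol names a subunit of complexes I to V, without rows marked as pseudogenes. This rule, applied to the symbols alone and without regard to any measured value, found 97 of 20591 rows, 13 encoded by the mitochondrial genome and 84 by the nuclear genome. The 84 nuclear members are 38 subunits of complex I, 4 of complex II, 8 of complex III, 17 of complex IV (with Ndufa4 and Ndufa4l2 placed there) and 17 of complex V. The 13 mitochondrial ones are 7 of complex I, 1 of complex III, 3 of complex IV and 2 of complex V. All 97 passed the filter on low counts. RNA-seq of polyA RNA had been run on 9 libraries in 3 groups of 3, and every group was wild type, sham-operated and allocated at 12 weeks of age. The study asks how fasting affects this region of the midbrain. One group was fed ad libitum for 1 week, one was fasted for 1 day (24 hours), and one had 1 week of intermittent fasting with 3 such fasts. Mice of the ad libitum group were moved between cages at the same hour as the fasted ones. Neither the time from the last fast to sampling nor whether libraries come from separate animals was given in the sources used here. The p-values then measure only the spread between these libraries, which may be technical.

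Complex I (NADH dehydrogenase) and complex II (succinate dehydrogenase) pass electrons to coenzyme Q, complex III passes them on to cytochrome c, and complex IV (cytochrome c oxidase) hands them to oxygen. Complexes I, III and IV pump protons, and complex V (ATP synthase) uses the returning protons to make ATP. The mitochondrial genome encodes a core of subunits of every complex but complex II, and its genes are transcribed as long polycistronic RNAs from both strands, so that mitochondrial and nuclear transcripts of one complex come from different transcription systems. Dopaminergic neurons of the substantia nigra have a high energy demand, and inhibitors of complex I are toxic to them.

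A pair of sequence features bear on how the rows below are read. The 2 mitochondrial subunits of complex V overlap in sequence, so that a read in the overlap fits both rows. They are shown because mt-Atp8 varied most of the 13 over the 9 libraries. The first run is the whole mt-Atp8 transcript and the second the first 60 bases of mt-Atp6, and capitals mark the 43 bases that they share (GENCODE M21, GRCm38, plus strand, chrM:7766-7969 and chrM:7927-8607).
mt-Atp8: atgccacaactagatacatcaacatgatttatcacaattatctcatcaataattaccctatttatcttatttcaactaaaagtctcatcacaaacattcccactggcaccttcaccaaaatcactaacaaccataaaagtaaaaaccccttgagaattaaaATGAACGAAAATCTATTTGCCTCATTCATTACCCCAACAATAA
mt-Atp6, start: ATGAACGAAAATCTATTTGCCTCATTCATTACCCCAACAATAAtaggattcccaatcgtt
The shared stretch is 21.1% of the 204 bases of mt-Atp8. On the other strand, mt-Nd6 is the only mitochondrial member read in the opposite direction (chrM:13552-14070, minus strand), and it overlaps the end of mt-Nd5 by 14 bases.

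NRF1 is a transcription factor known as an activator of respiratory chain genes, and its binding sequence was searched in the promoters of the nuclear members. RefSeq promoters (250 bases before to 50 after the gene start, GRCm38.p6) were matched for 68 of the 84 nuclear members. The palindrome GCGCATGCGC, searched on both strands, was in 5 of them (7.35%), beside 1.48% of 17242 genes with a promoter of the same length. The shorter GCATGCGC, which lies within it, was in 14.7% of members and 3.98% of genes. Excerpts of 50 bases around the palindrome (in capitals) are shown for the 4 members where it lies before the start. They are Atp5g2 (chr15:102671060-102671109, minus strand), Atp5k (chr5:108434420-108434469, minus strand), Cox6a1 (chr5:115349091-115349140, minus strand) and Ndufa11 (chr17:56717682-56717731, plus strand).
Atp5g2: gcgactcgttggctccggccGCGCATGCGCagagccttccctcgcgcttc
Atp5k: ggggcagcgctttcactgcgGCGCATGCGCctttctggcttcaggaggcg
Cox6a1: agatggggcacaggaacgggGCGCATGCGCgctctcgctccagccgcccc
Ndufa11: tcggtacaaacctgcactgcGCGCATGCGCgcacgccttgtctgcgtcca
The palindrome begins 42, 50, 162 and 60 bases before the start of these genes, and in Uqcrc1 it lies after the start. AAGATGGCG, a sequence bound by YY1, was in 10.3% of members and 2.16% of genes, and TGACGTCA, bound by CREB, in 5.88% and 2.57%. CCGGAAGT, bound by ETS factors such as GABP, was in 7.35% and 5.76%. These are matches of letters in a window, with no measurement of binding.

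Library totals ran from 36109995 to 54248856 counts. One library of each fasted group stood apart from the other 7 in earlier results of these data, 1 day replicate 2 and 1 week replicate 2, and their quality weights in a voom fit were 0.213 and 0.507, against 0.972 to 1.93 in the others. The summed level of 8 RNAs kept in the nucleus was 15891 and 12226 CPM in them (CPM are read counts scaled to the effective library size by TMM) and 9747 to 11353 in the others. Malat1 alone held 11865 and 8449 CPM of these sums. Miat was also above the others in both (244 and 221), and Neat1 in 1 day replicate 2 (329). Meg3, Kcnq1ot1, Snhg11 and Rian lay within the range of the others, and Mirg was lowest of all in 1 day replicate 2 (23.7). Medians and counts over the members are therefore also given without both. The 10 dopaminergic neuron markers summed to 837 to 2083 CPM over all 9 libraries, with none of them at 0 throughout, and the lowest sum was in 1 day replicate 3 (1307 to 2083 in the 8 others). In 1 day replicate 2 (1690 CPM) the list split, with Ddc (394) and Aldh1a1 (416) highest of the 9 libraries and Pitx3 (1.14) lowest. Th was at 88.6 there, against 160 to 207 in ad libitum. Markers of other tissues were high in 1 week replicate 3, where meninges and fibroblast markers reached 3023 CPM (495 to 1327 in the others), erythroid markers 1506 (282 to 623) and cortical glutamatergic markers 668 (158 to 242). Of that cortical sum Slc17a7 held 501 CPM, while Cux2 (73.0) and Rorb (34.2) were at their lowest of the 9 libraries. Choroid plexus markers were high in ad libitum replicate 3, at 409 CPM against 34.5 to 77.4 in the 8 others. Microglial markers summed to 346 to 377 CPM in the ad libitum group, 244 to 289 after 1 day and 220 to 346 after 1 week. Oligodendrocyte markers summed to 11704 to 14243, 10062 to 11936 and 10745 to 12198, with overlap. Of these 12 genes, 7 were lower without overlap in each comparison with ad libitum (58.3%). Beside this, 10.3% of all genes were lower after 1 day and 11.5% after 1 week. Ugt8a, an enzyme of myelin lipid synthesis, fell after 1 week (log2 fold change -1.24, SE 0.20, adjusted p = 0.0381, edgeR). Other sums without overlap with ad libitum were the erythroid (282 to 329 after 1 day against 446 to 483) and cortical glutamatergic ones (158 to 188 after 1 day against 211 to 233). The cortical list did not move together. Slc17a7 was at 33.2, 48.3 and 49.2 CPM in ad libitum and 9.50, 5.06 and 4.31 after 1 day, while Cux2 and Rorb, its largest members in these groups, overlapped. After 1 week the erythroid sum lay above (498 to 1506), as did the astrocyte sum (5450 to 5799 against 5174 to 5371), and the astrocyte connexin gene Gjb6 rose (log2 fold change 0.78, SE 0.12, adjusted p = 0.0364, edgeR). The astrocyte list did not move together either. Of its 11 genes 7 had a log2 fold change above 0 after 1 week and 4 below. Without overlap 3 were higher (27.3%, beside 10.9% of all genes) and 1, Sox9, was lower (9.09%, beside 11.5%). Slc1a2 held 2773, 2791 and 2805 CPM of the 1 week sums. Ugt8a and Gjb6 are named because they passed the test. The part of cell makeup in the results below was not tested, and in bulk tissue fewer cells of a type and less RNA per cell cannot be told apart.

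The 13 mitochondrial members held 3.92%, 2.60% and 3.80% of all counts in the ad libitum libraries, 2.56%, 1.84% and 3.82% after 1 day, and 3.38%, 1.75% and 2.79% after 1 week. The group means were 3.44% ± 0.729, 2.74% ± 1.00 and 2.64% ± 0.829 (SD, n = 3). The groups overlapped, and 1 day replicate 3 lay between ad libitum replicates 3 and 1. The 95% Wilson intervals of these shares are at most 0.00584 percentage points to either side and cover counting error only. The 84 nuclear members together held 7696, 7811 and 7705 CPM in the ad libitum group, 7565, 8488 and 7117 after 1 day and 7480, 7658 and 7655 after 1 week. The ratio of mitochondrial to nuclear members was 5.23, 3.71 and 4.89 in the ad libitum group, 3.27, 2.11 and 5.38 after 1 day, and 4.42, 2.24 and 3.55 after 1 week. The lowest ratios were those of the libraries that stood apart, and the highest of all was in 1 day replicate 3.

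**Figure D1:**
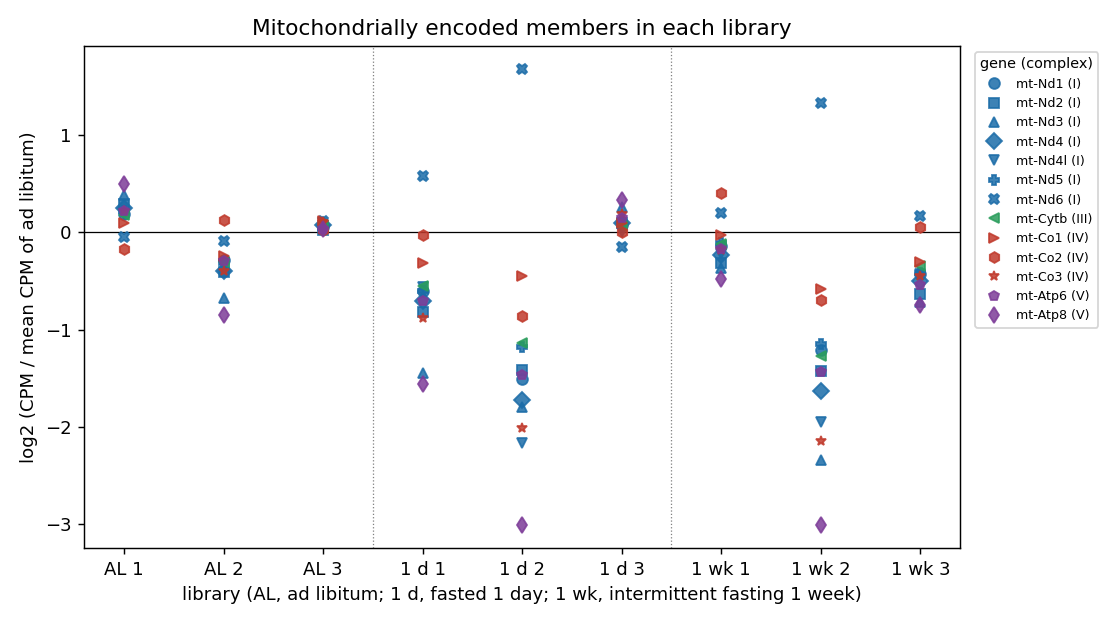
Level of each of the 13 mitochondrially encoded members in each library, as the log2 ratio of its CPM to its mean CPM in the ad libitum group (vertical axis), with libraries on the horizontal axis and colour for the complex. In 1 day replicate 2 and 1 week replicate 2, mt-Nd6 lies above and the other 12 below the ad libitum mean, with mt-Atp8 lowest, and 1 day replicate 3 lies among the ad libitum libraries.

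Per kilobase of transcript, the mitochondrial members stood far above the nuclear ones. Their median in the ad libitum group was 2232 CPM per kilobase (range 443 to 7662), beside 63.2 (1.17 to 532) for the 84 nuclear members. mt-Co1, the catalytic subunit of complex IV, was highest at 7662 CPM per kilobase, followed by mt-Atp6, the proton channel subunit of ATP synthase, at 5074 and mt-Co3 at 3971. mt-Nd1 and mt-Cytb, the cytochrome b of complex III, followed at 3076 and 3057, then mt-Nd4 at 2475, mt-Nd4l at 2232 and mt-Nd2 at 1825. The lowest were mt-Atp8 at 1739, mt-Nd5 at 1672, mt-Co2 at 1365, mt-Nd3 at 704 and mt-Nd6 at 443. Neighbours in this order such as mt-Nd1 and mt-Cytb did not differ beyond the spread between libraries. The place of mt-Co2 does not hold once a near-identical nuclear copy, described below, is counted with it.

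No mitochondrial member passed edgeR's quasi-likelihood test in either comparison with ad libitum, and 12 of 13 had a mean below it in both. Their median log2 fold change was -0.54 after 1 day and -0.63 after 1 week, where the median of all genes tested was 0.00041 and -0.0013. Of 20535 genes tested, 0.0584% passed at an adjusted p under 0.05 after 1 day and 0.307% after 1 week. DESeq2, and voom with quality weights, called no mitochondrial member either, and at an unadjusted p under 0.05 edgeR counted 0 of 13 in both comparisons. Adjusted p ran from 0.564 to 0.757 after 1 day and from 0.569 to 0.993 after 1 week (edgeR). The medians depended on single libraries. Without 1 day replicate 2 the 1 day median was -0.22, and without 1 day replicate 3 it was -1.03. Without 1 week replicate 2 the 1 week median was -0.30, and without 1 week replicate 1 it was -0.92. With both libraries that stood apart left out, the medians were -0.22 and -0.30.

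Libraries of each fasted group differed more from each other than the group medians differed from ad libitum. Against the ad libitum mean, the median of the 13 was -0.59, -1.45 and 0.11 (log2) in 1 day replicates 1, 2 and 3, and -0.16, -1.40 and -0.41 in 1 week replicates 1, 2 and 3. The ad libitum libraries themselves lay at 0.23, -0.30 and 0.10. In 1 day replicate 1, 11 of 13 members were below the whole ad libitum range, where 30.3% of all genes were, and in 1 day replicate 3 it was 1 of 13 (31.1% of all genes). In 1 week replicate 3 it was 10 of 13 (34.9%) and in 1 week replicate 1 none (29.9%). The replicates that did not stand apart therefore included both low and ad libitum-like libraries.

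mt-Co1 was measured at 12676, 9996 and 12841 CPM in the ad libitum group, 9522, 8662 and 12648 after 1 day, and 11633, 7891 and 9608 after 1 week. Its groups overlapped, and its log2 fold changes of -0.20 (SE 0.19, adjusted p = 0.702, edgeR) and -0.29 (SE 0.19, adjusted p = 0.645) were within the spread. It took 31.5%, 34.5% and 34.1% of mitochondrial counts in the ad libitum group, but 48.4% in 1 day replicate 2 and 45.9% in 1 week replicate 2, where other members were lower still. mt-Cytb was at 3974, 2841 and 3676 CPM in the ad libitum group, 2379, 1587 and 3663 after 1 day, and 3223, 1452 and 2755 after 1 week.

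mt-Nd1 and mt-Nd5, proton-pumping subunits of complex I, followed the same order of libraries. mt-Nd1 was at 3362, 2415 and 3054 CPM in the ad libitum group, 1931, 1037 and 3109 after 1 day, and 2663, 1276 and 2189 after 1 week. mt-Nd5 was at 3558, 2447 and 3144, then 2014, 1343 and 3262, then 2819, 1371 and 2289. For both, 1 day replicate 3 lay inside the ad libitum range and the pair of libraries that stood apart lay lowest. mt-Nd4 ran from 1031 to 4059 CPM over the 9 libraries, mt-Nd2 from 705 to 2320, mt-Nd4l from 148 to 759 and mt-Nd3 from 48.4 to 320, each with its lowest value in one of that pair.

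mt-Nd6, the subunit of complex I read from the opposite strand, was above the ad libitum range in 1 day replicate 2 and 1 week replicate 2. The other 12 were below it there. In ad libitum replicate 2, where 12 of 13 members lay below the ad libitum mean, mt-Nd6 was not high (217 CPM). It was at 223, 217 and 250 CPM in the ad libitum group, 345, 740 and 207 after 1 day, and 263, 578 and 260 after 1 week. The 1 week libraries all lay above the ad libitum ones, as those of 10.9% of all genes did, while the 1 day group overlapped. The log2 fold changes were 0.90 (SE 0.47, adjusted p = 0.564, edgeR) and 0.67 (SE 0.47, adjusted p = 0.662). mt-Nd6 made up 0.542% to 1.39% of mitochondrial counts in the 7 other libraries, and 4.13% and 3.36% in 1 day replicate 2 and 1 week replicate 2. The kit is directional per the labels, but the strand used in the counting was not given in the sources at hand.

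mt-Atp8, a small accessory subunit of ATP synthase, spanned the widest range. It was at 502, 197 and 365 CPM in the ad libitum group, 121, 43.8 and 447 after 1 day, and 255, 44.1 and 211 after 1 week. In both libraries that stood apart it was at 0.162 and 0.163 of the geometric mean of the other 7. Its log2 fold changes, -0.80 (SE 0.92, adjusted p = 0.755, edgeR) and -1.06 (SE 0.93, adjusted p = 0.736), carried the largest standard errors of the 13. mt-Atp6, which shares the 43 capital bases above, ranged less, from 1248 to 4012 CPM. mt-Co3, at 3628, 2361 and 3350 CPM in the ad libitum group, 1692, 773 and 3550 after 1 day and 2745, 703 and 2275 after 1 week, was lowest in the same 2 libraries.

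Reads of some mitochondrial members also fit nuclear copies of their sequence, and the source of such reads was not tested. Of the rows in the table, 7 pseudogenes each share at least 25% of the 31-base words of a mitochondrial member, and 6 of them lie in 1 block of 4663 bases (chr1:24611535-24616197, GRCm38). Gm28661 shares 99.5% of the words of mt-Co2, and it had more counts than mt-Co2 itself in all 9 libraries. It was at 3069, 1729 and 2709 CPM in the ad libitum group, 1379, 1015 and 2606 after 1 day, and 1880, 939 and 1710 after 1 week. mt-Co2, which carries the copper site that takes electrons from cytochrome c, was at 829, 1022 and 949, then 916, 515 and 936, then 1233, 575 and 969. How reads were divided between the 2 rows is set by the estimate, so the level of mt-Co2 is uncertain.

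**Figure D2:**
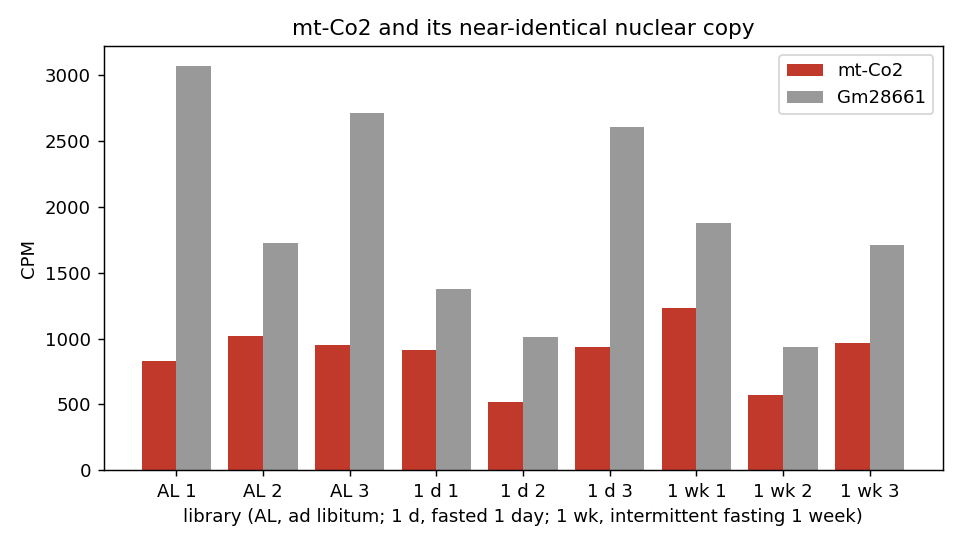
CPM of mt-Co2 (red) and of the nuclear pseudogene Gm28661 (grey) in each library. The grey bar is the taller in all 9 libraries, from 939 to 3069 CPM, while the red bar stays between 515 and 1233.

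With the counts of the 7 copies added to their mitochondrial rows, mt-Co2 had log2 fold changes of -0.48 (SE 0.33, adjusted p = 0.606, edgeR) after 1 day and -0.50 (SE 0.33, adjusted p = 0.639) after 1 week. Alone it had -0.24 (SE 0.29) and -0.01 (SE 0.29). The median of the 13 was then -0.54 and -0.54, and no member passed the test. This addition was chosen after the data were seen. Gm28439, which shares 62.8% of the words of mt-Nd4, had 0 counts in 7 libraries and 8773 and 4222 counts in 1 day replicate 2 and 1 week replicate 2. Gm29216, which shares 29.6% of those of mt-Co1, was at 34.4 and 7.72 CPM there and at 0.254 to 0.670 in the others. Both rows thus separate the same 2 libraries as mt-Nd6 does. Gm28661, given above, was lowest in these libraries. The other copies, Gm10925, Gm13340, Gm28437 and Gm28438, did not separate them. Gm10925 was highest in 1 week replicate 3 (402 CPM). Gm28438 had 0 counts in 1 day replicate 2 and its most, 98, in 1 week replicate 3.

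The nuclear members differed little in level between groups, and none passed the test. After 1 day their median log2 fold change was -0.13 and 56 of 84 were below 0 (49.9% of all genes were). After 1 week it was -0.12 and 58 of 84 were below 0 (50.2%). In edgeR's quasi-likelihood test 0 of 84 passed in either comparison, and the lowest adjusted p was 0.420 (Cox6b2) and 0.383 (Uqcrb). DESeq2, and voom with quality weights, called none. At an unadjusted p under 0.05, 9 members were lower and 0 higher after 1 day, where 4.9% and 4.37% of all genes were, and 2 were lower and 0 higher after 1 week (4.9% and 6.33%). The 9 are Ndufs8, Ndufc1, Ndufb2, Ndufb8 and Ndufab1 of complex I, Cox6b2 and Cox7b of complex IV and Atp5e and Atp5l of complex V. The 2 are Uqcrb and Uqcrh of complex III. They are named because of these values.

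Small differences in one direction were frequent among the nuclear members. All 3 libraries of the 1 day group lay below all 3 ad libitum libraries in 28 of 84 members (33.3%) and above them in 0, where 10.3% of all genes were lower in this way and 8.17% higher. In the 1 week group the counts were 25 lower (29.8%) and 2 higher (Ndufa2 and Atp5g3), beside 11.5% and 10.9%. Among the 10370 genes at 10 to 1100 CPM, the range of most members, 11.2% were lower and 8.53% higher after 1 day, and 14.4% and 7.68% after 1 week. Of the 77 nuclear members in that range, 25 were lower and 0 higher after 1 day, and 24 lower and 2 higher after 1 week. Without both libraries that stood apart, the counts were 38 lower and 0 higher after 1 day (15.3% and 13.1% of all genes) and 32 lower and 3 higher after 1 week (18% and 16.8%). Both comparisons use the same ad libitum libraries. Those 3 were close together in these genes, with per-library medians of -0.003, 0.018 and -0.015 around their mean (log2). The microglial, erythroid and cortical glutamatergic sums above were also lower without overlap after 1 day, though Cux2 and Rorb of the cortical list overlapped. Of the oligodendrocyte markers, 7 of 12 were lower without overlap in each comparison with ad libitum (58.3%). The astrocyte and erythroid sums were higher after 1 week, though Sox9 of the astrocyte list was lower without overlap. Their part in these counts was not tested.

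By library, the median of the 84 against the ad libitum mean was -0.07, -0.13 and -0.15 (log2) in 1 day replicates 1, 2 and 3, and -0.08, -0.22 and -0.05 in 1 week replicates 1, 2 and 3. Below the whole ad libitum range were 44, 44 and 67 of 84 in the 1 day libraries, where 30.3%, 38.9% and 31.1% of all genes were. In the 1 week libraries it was 49, 51 and 40 of 84, beside 29.9%, 35.5% and 34.9%. The library with the most nuclear members below the range, 1 day replicate 3, is the one whose mitochondrial members were at the ad libitum level. It also had the lowest sum of dopaminergic markers, 837 CPM against 1307 to 2083 in the 8 others, whose part was not tested. Without 1 week replicate 2 the 1 week median of the fitted changes was -0.05, and without both libraries that stood apart the medians were -0.11 and -0.05.

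**Figure D3:**
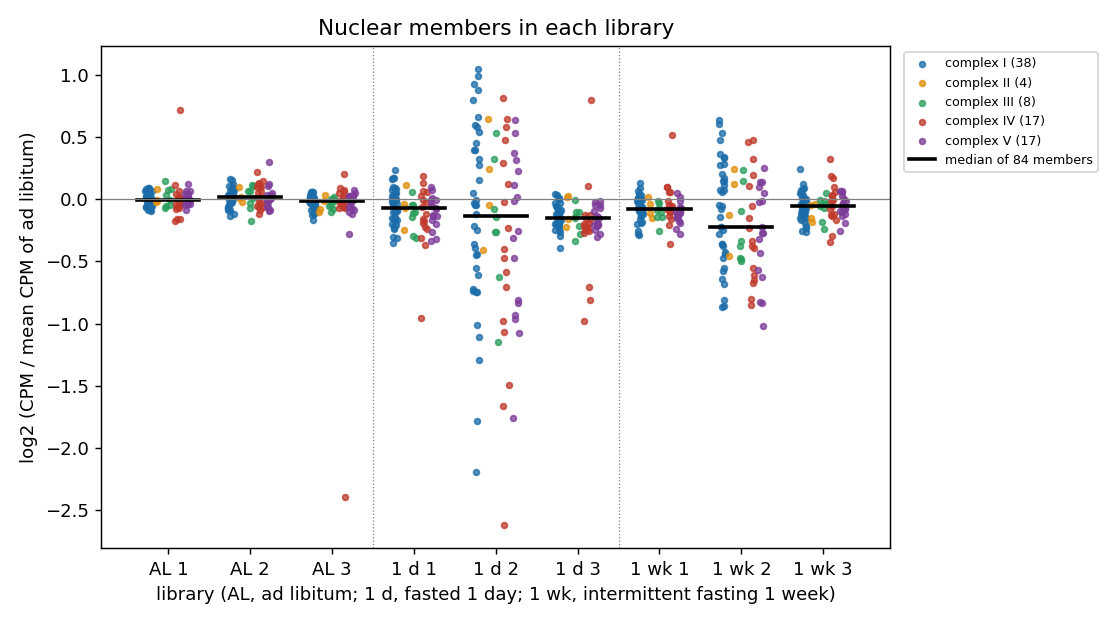
Level of the 84 nuclear members in each library, as the log2 ratio of CPM to the mean of the ad libitum group (vertical axis), with colour and horizontal offset for the complex and a black bar for the median of the 84. The medians of all 6 fasted libraries lie between -0.22 and -0.05, and the members spread most widely in 1 day replicate 2.

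Complex I has the most members, and its median log2 fold change was -0.12 after 1 day and -0.05 after 1 week, with 11 of 38 members lower without overlap in each comparison (10.3% and 11.5% of all genes were), and 0 and 1 higher (8.17% and 10.9%). Ndufs8, an iron-sulfur subunit of the peripheral arm, was at 47.3, 49.0 and 45.4 CPM in the ad libitum group, 38.3, 28.3 and 41.2 after 1 day, and 39.6, 30.2 and 41.3 after 1 week. Neither fasted group overlapped the ad libitum one, with log2 fold changes of -0.39 (SE 0.16, adjusted p = 0.525, edgeR) and -0.35 (SE 0.16, adjusted p = 0.447). Ndufc1, an accessory subunit, was at 26.8, 25.1 and 25.2 CPM, then 23.1, 16.9 and 22.3, then 21.001, 21.6 and 21.4, again without overlap (log2 fold changes -0.31 and -0.27). Ndufab1, the mitochondrial acyl carrier protein, was at 36.7, 32.5 and 34.3, then 29.4, 16.0 and 29.1, then 30.3, 23.6 and 30.7. These 3 were lower in all 6 fasted libraries.

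A pair of catalytic subunits of complex I did not follow them. Ndufs1, which carries iron-sulfur clusters, was at 150, 146 and 155 CPM in the ad libitum group, 154, 238 and 144 after 1 day, and 142, 182 and 142 after 1 week. Ndufv1, which binds NADH, was at 128, 143 and 136, then 152, 205 and 133, then 142, 175 and 144. In both, the groups overlapped and the highest value was in 1 day replicate 2. Ndufa2, an accessory subunit, was one of the 2 higher nuclear members after 1 week, at 34.0, 37.9 and 36.6 CPM in the ad libitum group and 39.7, 39.0 and 39.4 after 1 week (log2 fold change 0.12, SE 0.11, adjusted p = 0.732, edgeR). Ndufa12, also accessory, was at 54.6, 50.8 and 49.5, then 48.5, 57.6 and 46.6, then 47.7, 44.1 and 43.4.

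Complex II is wholly nuclear and has 4 subunits, and its median log2 fold change was -0.04 after 1 day and -0.10 after 1 week. Sdha, the flavoprotein that oxidizes succinate, was at 435, 444 and 434 CPM in the ad libitum group, 473, 683 and 444 after 1 day, and 444, 519 and 423 after 1 week. Sdhb, the iron-sulfur subunit, was at 68.0, 67.6 and 70.4, then 57.8, 51.7 and 70.0, then 66.8, 49.98 and 66.7. The membrane anchors Sdhc and Sdhd ranged from 70.4 to 97.4 and from 40.4 to 47.8 CPM. After 1 week Sdhb and Sdhd were lower without overlap (50% of the 4, beside 11.5% of all genes). After 1 day 0 of the 4 were lower (10.3% of all genes). In both comparisons 0 were higher (8.17% of all genes after 1 day and 10.9% after 1 week). In 1 day replicate 2, Sdha had its highest value and Sdhb the value next to its lowest.

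In complex III the median log2 fold change was -0.18 after 1 day and -0.17 after 1 week, and 4 of 8 members were lower without overlap in each comparison (10.3% and 11.5% of all genes), with 0 higher (8.17% and 10.9%). Uqcrfs1, the Rieske iron-sulfur protein, varied little and was lower in every fasted library, at 82.3, 82.9 and 82.6 CPM in the ad libitum group, 77.1, 74.7 and 74.5 after 1 day, and 77.8, 77.4 and 79.6 after 1 week. Its log2 fold changes were -0.13 (SE 0.08, adjusted p = 0.586, edgeR) and -0.08 (SE 0.08, adjusted p = 0.778). Uqcrh, the hinge protein near cytochrome c1, was at 85.7, 79.8 and 78.7, then 66.2, 67.8 and 73.8, then 73.6, 58.2 and 71.7, with log2 fold changes of -0.23 and -0.26 (adjusted p = 0.544 and 0.411, edgeR). Uqcrb, a small accessory subunit, was at 32.5, 26.1 and 29.7, then 23.8, 27.9 and 27.4, then 24.6, 22.6 and 24.96. Uqcrb shares 54.3% of its 31-base words with other genes, so its level is uncertain. Uqcrc1, a core subunit, ranged from 201 to 270 CPM with its groups overlapping, and Uqcr11 was lowest in 1 day replicate 2 at 18.6 (34.0 to 44.8 in the 7 others).

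In complex IV the median was -0.28 after 1 day and -0.11 after 1 week, with 7 and 4 of 17 members lower without overlap (10.3% and 11.5% of all genes) and 0 higher (8.17% and 10.9%). Cox7b was at 81.6, 69.43 and 75.7 CPM in the ad libitum group, 61.0, 54.6 and 63.7 after 1 day, and 65.5, 48.3 and 69.35 after 1 week (log2 fold changes -0.34 and -0.31, adjusted p = 0.528 and 0.454, edgeR). Cox7a2 was at 72.4, 67.1 and 71.3, then 59.4, 53.1 and 61.2, then 65.3, 48.0 and 64.7. Cox5b was at 103.5, 103.1 and 100.3, then 87.7, 62.6 and 93.7, then 98.4, 64.2 and 98.6. These 3 subunits, none of them catalytic, were lower in all 6 fasted libraries. Cox4i1, the most abundant nuclear subunit of the complex per kilobase (411 CPM per kilobase), was at 302, 337 and 305 CPM, then 345, 492 and 270, then 327, 395 and 354, with overlap. Cox5a ranged from 80.1 to 112 CPM, Ndufa4 from 69.2 to 96.3 and Cox7a2l from 92.7 to 146, also with overlap.

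Isoforms known from other tissues were at low levels. In the ad libitum group the muscle isoforms Cox6a2 and Cox7a1 were at 1.17 and 3.83 CPM per kilobase, beside 212 and 107 for the broadly expressed Cox6a1 and Cox7a2. Cox4i2, known from lung and hypoxia, was at 1.36 beside 411 for Cox4i1, and Ndufa4l2, a hypoxia-induced relative of Ndufa4, at 2.24 beside 148. The testis isoform Cox6b2 was at 3.79. Cox6b2 had the smallest p of the nuclear members after 1 day, at 1.99, 2.46 and 2.21 CPM against 1.14, 1.06 and 1.27, without overlap (log2 fold change -0.94, SE 0.29, adjusted p = 0.420, edgeR). After 1 week it was at 1.73, 1.23 and 2.77 and overlapped the ad libitum group.

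In complex V the median was -0.15 after 1 day and -0.13 after 1 week, with 6 and 4 of 17 members lower without overlap (10.3% and 11.5% of all genes), and 0 and 1 higher (8.17% and 10.9%). Atp5a1 and Atp5b are the alpha and beta subunits that form the catalytic head. Atp5a1 had the smallest spread of all nuclear members at 10 CPM or more, at 688, 695 and 708 CPM in the ad libitum group, 694, 704 and 688 after 1 day, and 707, 688 and 730 after 1 week (SD of log2 CPM 0.028 over 9 libraries). Atp5b, the highest nuclear member at 532 CPM per kilobase, was at 992, 1024 and 1043 CPM, then 1013, 1268 and 918, then 975, 1092 and 1020. Neither differed between groups beyond the spread.

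Several smaller subunits of ATP synthase had lower values in the fasted libraries. Atp5e, the epsilon subunit of the central stalk, was at 44.5, 49.7 and 43.0 CPM in the ad libitum group, 41.7, 33.0 and 37.6 after 1 day, and 38.8, 37.9 and 42.9 after 1 week, without overlap but with no call (adjusted p = 0.525 and 0.580, edgeR). Atp5l, a membrane subunit, was at 71.5, 68.4 and 65.2, then 56.9, 39.0 and 59.0, then 62.4, 46.0 and 59.9, though 69.7% of its 31-base words occur in other genes. Atp5d, the delta subunit of the central stalk, had a wide spread (SD of log2 CPM 0.588 over 9 libraries), with 1 day replicate 2 at 28.7 CPM and 1 week replicate 2 at 54.6, against 84.2 to 99.0 in the others. Of the genes for the ring subunit c, Atp5g3 was at 141, 141 and 150 CPM on average in the 3 groups, and Atp5g1 at 95.5, 74.1 and 87.4. Atp5g2 was near 4 CPM, but it shares 87.7% of its words with the pseudogene Gm10175, which was near 48, so its level is uncertain. Atp5k, a membrane subunit whose promoter is printed above, overlapped in all groups (22.1 to 30.1 CPM).

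**Figure D4:**
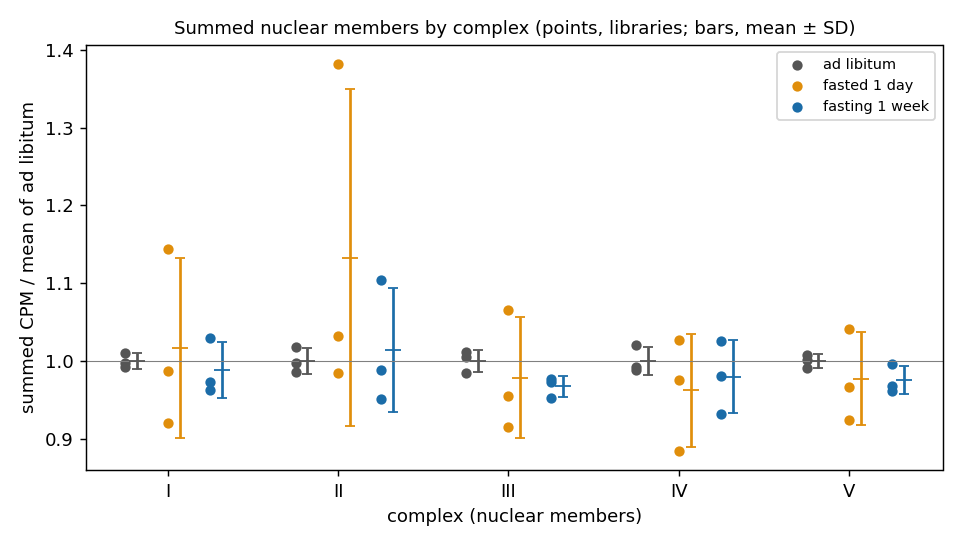
Summed CPM of the nuclear members of each complex in each library, relative to the mean of the ad libitum group (points), with the mean ± SD of each group of 3 beside them. The 1 week group lies below 1 in all 3 libraries for complexes III and V, and the 1 day group spreads widely for complex II, with replicate 2 highest.

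Between the fasted groups no member passed the test, as no gene of 20535 did (0%). The median log2 fold change of 1 week against 1 day was -0.07 for the mitochondrial and 0.01 for the nuclear members. At an unadjusted p under 0.05, 2 nuclear members were higher and 0 lower (3.53% and 1.69% of all genes), Cox6b2 with a log2 fold change of 0.72 and Ndufa2 with 0.27 (adjusted p = 0.853 for both, edgeR). Ndufa2 and Uqcrfs1 were the 2 nuclear members higher without overlap, and 0 were lower, where 4.5% and 3.28% of all genes were. Without both libraries that stood apart, 23 were higher and 4 lower, beside 19.7% and 18.2%.

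The 2 libraries that stood apart split the nuclear members. In 1 day replicate 2, 23 of 84 lay more than 0.5 (log2) below the mean of the 7 others and 17 more than 0.5 above it, together 47.6%, beside 27.8% of 16265 genes at 1 CPM or more. In 1 week replicate 2 it was 15 below and 3 above, 21.4% beside 13.5%. The deviations of the members in these libraries ran together, with r = 0.73 over the 84 nuclear and 0.97 over the 13 mitochondrial members, beside 0.60 over all 16265 genes. Both deviations are taken from the same 7 libraries and genes are not independent replicates, so these values describe the libraries alone. Among the lowest in 1 day replicate 2, named after their values were seen, were Ndufb1 (2.61 CPM against 9.37 to 12.7 in the 7 others), Ndufa11 (15.1 against 43.5 to 53.4) and Cox8a (46.8 against 118 to 136). Cox6a1 was at 38.3 CPM there, against 100.2 to 138. Among the highest were Ndufb3 (64.4 against 29.9 to 33.2) and Ndufa9 (179 against 80.7 to 96.6), also named afterwards.

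**Figure D5:**
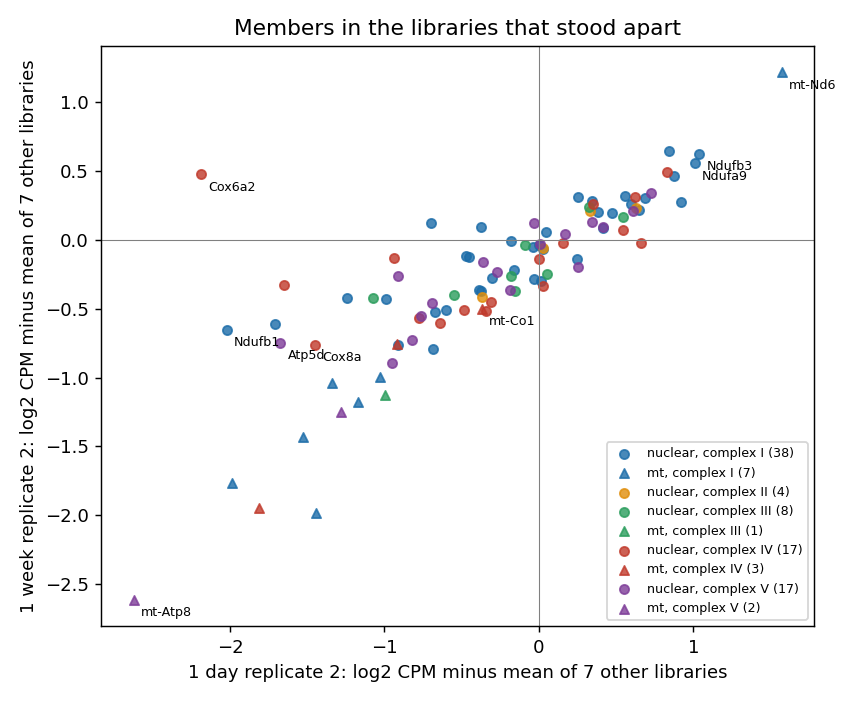
Each member's log2 CPM in 1 day replicate 2 (horizontal axis) and 1 week replicate 2 (vertical axis) minus its mean in the 7 other libraries, with circles for nuclear and triangles for mitochondrial members and colour for the complex. Members low in one library are mostly low in the other, mt-Nd6 is at the upper right and mt-Atp8 at the lower left.

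In 1 day replicate 2 the deviations of the nuclear members were lower at higher GC content of their transcripts, and in 1 week replicate 2 less clearly so. In 4 groups of rising GC content, from 42.0% to 60.4%, the median deviation of the nuclear members in 1 day replicate 2 was 0.03, 0.03, -0.19 and -0.55 (log2, 21 members each). In 1 week replicate 2 it was -0.13, 0.04, -0.16 and -0.33. Spearman's rho with GC was -0.34 over the 84 and -0.40 over all 16265 genes in 1 day replicate 2, and -0.21 and -0.08 in 1 week replicate 2. With transcript length it was 0.19 and 0.09 in 1 day replicate 2. Over the 13 mitochondrial members rho had the other sign with GC, 0.17 and 0.29 in the 2 libraries, and was 0.45 and 0.50 with length (0.63 and 0.69 without mt-Nd6). The part of composition in the differences between groups was not tested.

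The genes that build and regulate the chain gave no call in edgeR's test of all 9 libraries. Of 58 assembly factors, all in the table, 0 passed the edgeR test in any comparison, with medians of -0.10 after 1 day and -0.12 after 1 week. At an unadjusted p under 0.05, 4 and 5 of them were lower and 0 higher, where 4.9% of all genes were lower in each comparison. Without overlap 13 and 15 were lower (22.4% and 25.9%), beside 10.3% and 11.5% of all genes, and 1 (Cox19, named for this) and 0 higher, beside 8.17% and 10.9%. Lyrm7, which holds the Rieske protein for insertion into complex III, was at 10.6, 9.29 and 8.99 CPM in the ad libitum group, 6.90, 6.95 and 7.56 after 1 day, and 7.37, 6.22 and 6.26 after 1 week. Its log2 fold changes were -0.43 (SE 0.14, adjusted p = 0.434, edgeR) and -0.54 (SE 0.14, adjusted p = 0.170), and DESeq2 called the latter (adjusted p = 0.0172). Bcs1l, which inserts that same protein, was at 14.0, 14.4 and 11.2, then 9.23, 12.1 and 10.03, then 8.89, 8.26 and 9.34, and its 1 week change of -0.58 (SE 0.15, adjusted p = 0.172, edgeR) was likewise called by DESeq2 (adjusted p = 0.0294). Their substrate Uqcrfs1 was lower without overlap in both comparisons, as given above. Fmc1, an assembly factor of ATP synthase, was at 11.3, 10.7 and 9.88, then 8.85, 4.03 and 7.12, then 8.98, 6.79 and 8.46. Coa4, of complex IV assembly, and Tmem126b, of complex I assembly, were lower without overlap after 1 week. Coa4 was at 3.995, 4.05 and 3.18 CPM against 2.25, 2.13 and 2.77 (adjusted p = 0.221, edgeR), and Tmem126b at 30.8, 28.2 and 27.4 against 25.5, 24.3 and 24.3 (adjusted p = 0.411).

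Of 37 genes for the expression and upkeep of mitochondrial DNA, 36 were in the table and 0 passed, with medians of -0.05 and -0.09. Without overlap 3 were lower after 1 day (8.33%, beside 10.3% of all genes) and 7 after 1 week (19.4%, beside 11.5%). In both comparisons 0 were higher (8.17% and 10.9% of all genes). Fastkd2, which acts on mitochondrial RNA, was at 20.6, 16.5 and 19.0 CPM, then 13.6, 17.7 and 16.3, then 15.3, 15.1 and 14.3. Polg2, the accessory subunit of the mitochondrial DNA polymerase, was at 4.19, 3.91 and 4.51, then 3.59, 3.36 and 3.11, lower without overlap after 1 day (adjusted p = 0.547, edgeR). Tfb2m, a mitochondrial transcription factor, ranged from 9.84 to 15.1 CPM and Top1mt, a mitochondrial topoisomerase, from 11.8 to 18.4, with overlap. Lrpprc, which stabilizes mitochondrial mRNAs, ranged from 79.1 to 101 CPM. Of 19 regulators of mitochondrial biogenesis 0 passed, with medians of -0.03 and -0.10, and YY1, whose sequence is named above, was transcribed at 51.6, 52.2 and 50.2 CPM (gene Yy1) in the ad libitum group 55.9, 60.3 and 56.5 after 1 day, and 51.2, 54.5 and 55.4 after 1 week, where it overlapped. Esrrb, an estrogen-related receptor, was at 8.98, 8.74 and 13.4, then 9.75, 6.38 and 5.63, then 8.02, 8.45 and 12.2. Perm1, a muscle regulator of oxidative genes, ranged from 0.464 to 1.59 CPM and Ppara, a receptor for fatty acids, from 2.45 to 5.36, with overlap in both comparisons. Prkaa1, a catalytic subunit of the energy sensor AMPK, was at 49.7, 46.9 and 48.5 in the ad libitum group and lower without overlap after 1 week, at 46.6, 41.8 and 41.8 (adjusted p = 0.607, edgeR). Of the 19 regulators, 0 were lower without overlap after 1 day (10.3% of all genes) and 2 after 1 week (10.5%, beside 11.5%). Higher without overlap were 1 after 1 day (5.26%, beside 8.17%) and 0 after 1 week (10.9% of all genes).

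Of 30 genes for electron carriers, uncouplers and ADP exchange, 29 were in the table and 0 passed, with medians of 0.03 and -0.05. Without overlap 2 were lower after 1 day (6.90%, beside 10.3% of all genes) and 6 after 1 week (20.7%, beside 11.5%). Higher without overlap were 2 after 1 day (6.90%, beside 8.17%) and 1 after 1 week (3.45%, beside 10.9%). Ucp2, an inner membrane carrier of the uncoupling protein family, was at 43.8, 50.5 and 42.5 CPM in the ad libitum group, 70.2, 38.2 and 70.9 after 1 day, and 65.6, 64.9 and 65.5 after 1 week. The 1 week group lay above the ad libitum one without overlap, and the log2 fold change was 0.52 (SE 0.20, adjusted p = 0.373, edgeR). Within the 1 day group, replicate 2 stood below the ad libitum range and the other libraries above it. Without both libraries that stood apart the 1 day change was 0.63 and passed the test (adjusted p = 0.0386, edgeR). The 1 week change passed in a fit of the 6 libraries compared (adjusted p = 0.0475) and without 1 day replicate 2 (adjusted p = 0.0318). Cycs, the cytochrome c that carries electrons from complex III to complex IV, was at 50.4, 45.6 and 48.4 CPM, then 37.6, 57.6 and 43.8, then 40.1, 40.8 and 37.1, lower without overlap after 1 week (log2 fold change -0.29, adjusted p = 0.499, edgeR). Coq2, of coenzyme Q synthesis, was lower without overlap in both comparisons, at 38.8, 43.1 and 36.5, then 34.8, 25.8 and 33.7, then 33.6, 32.5 and 34.4. Coq8a, also of coenzyme Q synthesis, was higher without overlap after 1 day, at 24.3, 25.8 and 22.3 against 27.0, 27.0 and 26.9 (adjusted p = 0.630, edgeR), and Slc25a14, an inner membrane carrier, ranged from 18.3 to 34.4 CPM with overlap. Atpif1, the inhibitor of ATP synthase, was at 63.6, 65.3 and 61.7 CPM on average in the 3 groups.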

How the data were processed

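Per the labels, polyA RNA of substantia nigra lysate was sequenced from directional libraries. The deposited values are estimated counts, whole numbers for each gene, made by the authors with Salmon against GRCm39 (mm39), per the submitters' processing notes, which also name DESeq2 1.40.2. The Salmon version, annotation release and counting strand were not given in the sources used here. Among rows, the lowest row mean was 9.89 counts. Counts were fitted with edgeR 4.0.16 (R 4.3.3). TMM factors, filterByExpr (minimum count 10, total 15; 20535 of 20591 rows kept) and a robust quasi-likelihood fit of all 9 libraries were used, with two-sided F tests and Benjamini-Hochberg adjustment over all genes at 0.05. CPM are on the TMM scale. "Without overlap" means that all 3 libraries of one group lie beyond all 3 of the other. No 2 libraries agreed within sampling noise (lowest chi-square per gene 26.5). Alternatives used DESeq2 1.42.0 and limma 3.58.1. Transcript length, GC content and shared 31-base words come from GENCODE M21 (GRCm38), by gene identifier, for 97 of 97 members, and promoters from RefSeq (GRCm38.p6), by Python 3.11.15. The script was tested on simulated counts. The members and lists were chosen with earlier results of these data known. Named genes are every mitochondrial member, per complex and comparison the 2 nuclear members with the smallest p, a set of catalytic subunits and tissue isoforms, the steadiest and most variable nuclear member with a mean of 10 CPM or more over 9 libraries, and per other list the 2 smallest p in each comparison. Members outside this rule are named for examples. One gene that this rule names is not reported here.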

Additional observations from a re-analysis of the deposited data

How the results depend on the processing

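Under all alternatives run (DESeq2, RLE size factors, no low-count filter, 1 CPM in at least 6 libraries, mitochondrial rows left out of library sizes, voom with quality weights, the 6 libraries compared, the replicate block, without both libraries that stood apart, leave-one-out, and copies added) 0 members were called in any comparison. Counts over all genes tested did change, after 1 day from 12 to 187 with DESeq2, 93 with voom, 26 with 6 libraries, 2 with the block and 50 without both libraries, and after 1 week from 63 to 467, 296, 155, 32 and 70. The medians of mitochondrial members ranged from -1.03 to -0.22 after 1 day, -0.92 to -0.30 after 1 week and -0.40 to 0.41 between the fasted groups when 1 library was left out. Those of nuclear members ranged from -0.150 to -0.0969, -0.157 to -0.0469 and -0.0309 to 0.0717. Without both libraries the nuclear medians were -0.0469 after 1 week and 0.0519 between the fasted groups, where 23 members were then higher and 4 lower without overlap in place of 2 and 0. Leaving out 1 library at a time, the mitochondrial share ranged from 3.20% to 3.86% (ad libitum), 2.20% to 3.19% (1 day) and 2.27% to 3.09% (1 week), and the summed nuclear CPM from 7700 to 7758, 7341 to 8026 and 7567 to 7656. With mitochondrial rows left out of library sizes that sum was 8005 in the ad libitum group and 7900 after 1 week, since the totals are then smaller. Whether replicate numbers pair the samples could not be settled. Correlations of deviations from group means between same-numbered libraries were -0.21, -0.12 and -0.24 (1 day) and -0.05, -0.09 and 0.25 (1 week). Between the fasted groups they were 0.11, 0.41 and 0.07, with 0.41 from the pair of libraries that stood apart. Deviations from a mean of 3 libraries depend on each other, so these values cannot exclude pairing. The replicate block gave mitochondrial medians of -0.65, -0.71 and -0.04 and nuclear medians of -0.14, -0.12 and 0.01. Of 3990 values of named genes under alternatives, 3758 kept their direction and side of the threshold, 227 uncalled ones changed sign and 5 passed the threshold (Lyrm7, Bcs1l and Ucp2, given above). With 3 libraries a group, an exact permutation test of 1 value cannot go below 0.1.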

Other observations

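The ribosomal RNAs of the mitochondrial genome are no subunits. mt-Rnr2 followed the order of the summed mRNA rows in part, and mt-Rnr1 did not. Ad libitum replicate 1 and 1 day replicate 3 were highest both in mt-Rnr2 and in the mRNA sum. The lowest library was 1 day replicate 1 in mt-Rnr2 and 1 week replicate 2 in the mRNA sum. mt-Rnr2 was at 9093, 6718 and 6080 CPM in the ad libitum group, 2863, 4961 and 9282 after 1 day, and 5436, 3388 and 4595 after 1 week. mt-Rnr1 was at 805, 3104 and 397 CPM in the ad libitum group and between 336 and 540 in the 6 fasted libraries, so its highest value came from 1 ad libitum library.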
